A study of Drosophila melanogaster with 136 samples.

Results

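The genes bcd, swa, exu, osk, nos, pgc, vas, tud, aub and grk encode mRNAs that the Drosophila melanogaster mother supplies to set the axes of the egg and embryo and to build the germ plasm. These 10 were picked by FlyBase identifier out of 17477 genes in each of 3 embryo mRNA count tables, and all 10 were found in every table. The tables hold 38 poly(A) mRNA libraries, out of 136 samples in the series.

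Before the zygotic genome is active, the fly embryo runs on mRNAs that the nurse cells of the ovary made and passed to the oocyte. A few are tethered to a pole: bicoid (bcd) mRNA at the anterior, and oskar (osk), nanos (nos) and polar granule component (pgc) mRNAs at the posterior, where Oskar protein assembles the germ plasm from which the germ cells arise. Most maternal mRNAs are then destroyed, first by factors laid down in the egg such as Smaug and later by zygotic factors that include microRNAs. Dora is the Drosophila counterpart of ZSWIM8, the subunit of a cullin-RING ubiquitin ligase that picks its substrates in target-directed microRNA degradation, where a matching RNA triggers the decay of a microRNA. CR43432 is a long non-coding RNA gene, named lncRNA:marge in the RefSeq annotation.

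The mutant groups were dora[B], dora[A] and CR43432 mutant embryos at 8-12, 12-16 and 16-20 h. Each was set beside wild-type embryos of its own table, WT_B, WT_A and the CR43432 controls, and the CR43432 controls were also collected at 0-2 and 2-4 h. Each group had 2 libraries, except for 1 library per genotype at 16-20 h in the CR43432 table. The series design names fly lines as replicates, and the CR43432 titles number lines while the dora and WT_A or WT_B titles number replicates. P-values measure the spread between these libraries. The sources used here do not state the lesions of the alleles, the genotype of the mothers or the number of embryos per library.

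Counted reads per library ranged from 8964741 to 28908383. The Dora transcript ranged from 184 to 571 CPM (counts scaled to library size with TMM within a table) in dora[B] libraries against 394 to 825 CPM in WT_B, a log2 fold change over the 3 times of -0.65 ± 0.14 (SE here and below; adjusted p = 0.00327, edgeR). It ranged from 350 to 574 CPM in dora[A] libraries against 300 to 718 CPM in WT_A (-0.11 ± 0.11; adjusted p = 0.834). CR43432 RNA ranged from 5.21 to 186 CPM in its mutants against 6.50 to 225 CPM in its controls from 8 h on (-0.41 ± 0.26; adjusted p = 1.00). Gene counts do not test an allele that leaves the transcript in place, so these values do not check the labels. In the controls, 10 early zygotic patterning genes summed to 41.4 and 77.0 CPM at 0-2 h and to 1075 and 1388 CPM at 2-4 h, and all 16 follicle cell and eggshell genes had no count in either 0-2 h library.

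All 10 members are protein coding, and their spans in the RefSeq annotation of the Release 6 assembly (dm6) are as follows. The anterior genes are bcd (FBgn0000166) at 3R:6755842-6759466, swa (FBgn0003655) at X:6363418-6365708 and exu (FBgn0000615) at 2R:20667427-20671083. The posterior mRNAs are those of osk (FBgn0003015) at 3R:8935126-8938395, nos (FBgn0002962) at 3R:19157238-19160202 and pgc (FBgn0016053) at 2R:22330200-22332813. The other germ plasm genes are vas (FBgn0283442) at 2L:15061656-15074311, tud (FBgn0003891) at 2R:21183322-21192913 and aub (FBgn0000146) at 2L:10997819-11001476, and grk (FBgn0001137) lies at 2L:8431086-8433598. Other annotated genes overlap every member except bcd, swa and tud. Among them are solo and vig at vas, galla-1 at exu, CG11779 at nos, T3dh at pgc, TTLL4A at aub and Akap200 at grk. At osk, lncRNA:osk shares 2680 bases and has no counts of its own here, and asRNA:CR44020 shares 162 bases. Strand use in counting is not stated, so shared reads cannot be told apart.

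In control embryos, the levels of the members fell at different steps. Loss of maternal mRNA and new transcription cannot be told apart in these levels. Between 0-2 h and 2-4 h, 6 of the 10 fell, exu, osk, vas, nos, pgc and tud, whereas bcd, swa, aub and grk were not called. Of all 11457 genes tested, 19.2% were called lower and 16.4% higher at this step (edgeR quasi-likelihood test, Benjamini-Hochberg adjusted p under 0.05). At 8-12 h against 2-4 h, 8 fell and 1, tud, rose, where 28.4% of all genes were called lower and 30.9% higher (59.3% in all). At 8-12 h against 0-2 h all 10 were called lower, against 31.7% of all genes lower and 31.1% higher (62.8% in all). For tud, that last call was lost with RLE scaling (-0.19; adjusted p = 0.239). It was also lost for tud with library totals, no filter on low counts, the compared groups alone or DESeq2 (-0.19 to -0.35). For bcd it was lost without the filter (-3.62; adjusted p = 0.123) or with the compared groups alone (-3.56; adjusted p = 0.125). For grk it was lost with the compared groups alone (-1.25; adjusted p = 0.159). Without line 2 at 0-2 h or line 1 at 8-12 h it was lost for bcd, tud and grk. Without line 1 at 0-2 h it was lost for bcd and tud.

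Of the anterior genes, bcd encodes the homeodomain morphogen of head and thorax. In lines 1 and 2, bcd had 149 and 168 CPM at 0-2 h, 99.1 and 141 CPM at 2-4 h, 0.28 and 23.1 CPM at 8-12 h and 1.97 and 13.7 CPM at 12-16 h, and the single 16-20 h library had 9.85 CPM. The 2-4 h libraries kept 75.6% of the mean 0-2 h level, and from 8 h line 2 was above line 1. The log2 fold change at 8-12 h against 2-4 h was -3.38 ± 1.35 (adjusted p = 0.0545). It was called with fly line as a replicate block (-4.08 ± 1.11; adjusted p = 0.0127), and without line 2 at 8-12 h it was -8.68 (adjusted p = 0.00409).

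swallow (swa) encodes an RNA-binding protein needed to hold bcd mRNA at the anterior. It had 491 and 347 CPM at 0-2 h, 124 and 167 CPM at 2-4 h, 1.06 and 13.9 CPM at 8-12 h, 2.78 and 11.5 CPM at 12-16 h and 8.82 CPM at 16-20 h. The 2-4 h mean was 34.7% of the 0-2 h mean, a step that was not called (-1.53 ± 1.00) but was with these 2 groups fitted alone (-1.43 ± 0.19; adjusted p = 1.82e-04). swa then fell by 4.32 on the log2 scale to 8-12 h (-7.09 without line 2 at 8-12 h). As for bcd, line 2 was above line 1 at 8-12 and 12-16 h.

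exuperantia (exu) encodes a protein that acts in the ovary, in the transport of bcd mRNA. It had 512 and 425 CPM at 0-2 h, 17.2 and 18.5 CPM at 2-4 h, 0.35 and 2.10 CPM at 8-12 h, 4.01 and 5.51 CPM at 12-16 h and 2.77 CPM at 16-20 h. Its 2-4 h level was 3.81% of its 0-2 h level, the lowest such share among the 10 members. It fell by 4.71 on the log2 scale at this step.

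Of the posterior mRNAs, osk encodes the organizer of the germ plasm. It had 1667 and 1224 CPM at 0-2 h, 95.3 and 104 CPM at 2-4 h, 0.56 and 0.44 CPM at 8-12 h, 2.78 and 3.25 CPM at 12-16 h and 2.00 CPM at 16-20 h. That is 6.90% of its first level at 2-4 h and 0.0347% at 8-12 h, with log2 fold changes of -3.86 ± 0.24 and then -7.59 ± 0.33, and no libraries of the first 3 stages overlapped. nos encodes the translational repressor of the posterior. It had 547 and 493 CPM at 0-2 h, 86.1 and 103 CPM at 2-4 h, 2.05 and 0.96 CPM at 8-12 h, 2.51 and 1.28 CPM at 12-16 h and 2.70 CPM at 16-20 h. Its 2-4 h level was 18.2% of its first level. The 8-12 and 12-16 h libraries overlapped, and the 16-20 h library lay just above them. pgc encodes a small protein that keeps transcription off in the pole cells. It had 214 and 147 CPM at 0-2 h and 34.5 and 42.7 CPM at 2-4 h, but 3 reads in the 2 libraries of 8-12 h. The ratio of 8-12 h to 2-4 h was 0.00301 (95% exact interval of counting error 0.000620 to 0.00884).

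The other germ plasm genes split. vasa (vas) encodes a DEAD-box helicase of germ granules. It had 258 and 259 CPM at 0-2 h, 27.7 and 32.8 CPM at 2-4 h, 9.67 and 12.9 CPM at 8-12 h, 9.71 and 12.5 CPM at 12-16 h and 4.57 CPM at 16-20 h. At 8-12 h it kept 4.36% of its first level, against 0.262% for exu, 0.0347% for osk, 0.290% for nos and 0.0634% for pgc. The gene vig shares 7386 bases with vas and reached 1030 CPM. tudor (tud) encodes a scaffold protein with Tudor domains. It had 718 and 533 CPM at 0-2 h, 174 and 134 CPM at 2-4 h, 420 and 457 CPM at 8-12 h, 588 and 584 CPM at 12-16 h and 449 CPM at 16-20 h. It thus fell by 2.02 on the log2 scale to 2-4 h and rose by 1.51 ± 0.18 to 8-12 h, where it stood at 70.1% of its first level.

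aubergine (aub) encodes a Piwi-family protein that binds piRNAs in nuage and germ plasm. It had 150 and 130 CPM at 0-2 h, 142 and 187 CPM at 2-4 h, 22.0 and 22.4 CPM at 8-12 h, 6.59 and 11.4 CPM at 12-16 h and 9.01 CPM at 16-20 h. The first 2 stages overlapped, and each of the next 2 lay below the one before. gurken (grk) encodes the TGF-alpha-like ligand by which the oocyte signals to the follicle cells and fixes the dorsal side. It had 9.35 and 11.5 CPM at 0-2 h, 10.0 and 13.8 CPM at 2-4 h, 2.12 and 5.35 CPM at 8-12 h, 10.9 and 11.8 CPM at 12-16 h and 10.4 CPM at 16-20 h. Both 8-12 h libraries lay below all others, and grk fell by 1.69 on the log2 scale to that stage, a call lost without line 2 at 2-4 h (-1.35; adjusted p = 0.0678) or line 1 at 8-12 h (-1.16; adjusted p = 0.0591).

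**Figure D1:**
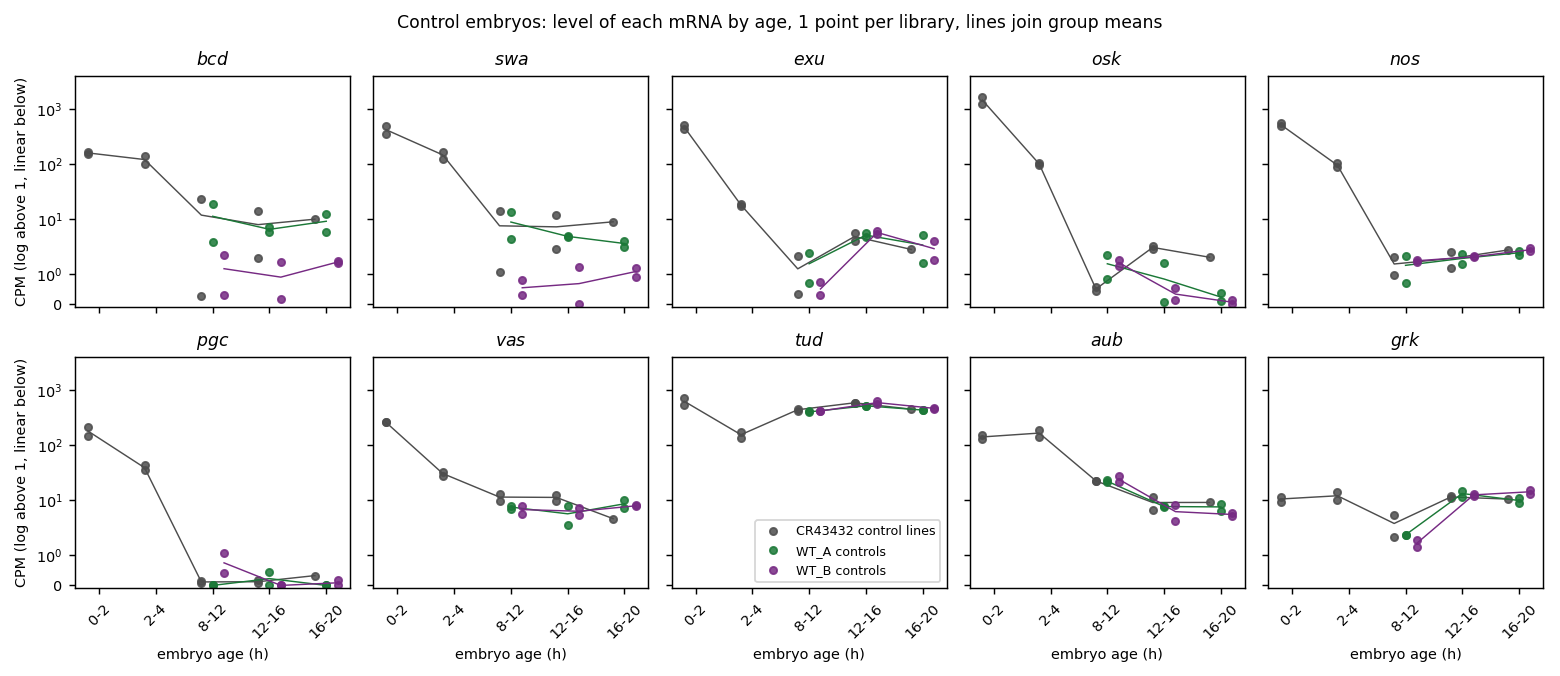
CPM of each member (y axis, logarithmic above 1 and linear below) in every control library against embryo age in hours (x axis), 1 point per library, with lines through the group means of the CR43432 controls (grey), WT_A (green) and WT_B (purple). bcd, swa, exu, osk, nos, pgc, vas and aub lie far below their 0-2 h level from 8 h on, tud is back at 420 CPM or more in the CR43432 controls, and grk lies lower at 8-12 h than at 12-16 h in all 3 tables.

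The later control stages were measured in all 3 tables, which were scaled separately. At 12-16 h against 8-12 h, exu, osk and grk rose and aub fell in the CR43432 controls, against 22.7% of all genes called higher and 21.1% lower (43.8% in all). In WT_A grk rose and aub fell, 2 of 9 members tested, against 22.6% higher and 15.0% lower (37.6% in all). In WT_B exu and grk rose and aub and osk fell, against 22.7% higher and 15.8% lower (38.5% in all). aub thus fell in the 3 tables (-1.30, -1.53 and -1.98), but the WT_A call did not hold without any 1 of its 4 libraries (adjusted p 0.115 to 0.159), nor the WT_B call without any 1 of 3 (adjusted p 0.0555 to 0.110). In the CR43432 table the aub call was lost without line 1 at 12-16 h (-0.97; adjusted p = 0.0629), and those of exu and grk without some of the libraries (adjusted p 0.0522 to 0.107).

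In WT_A, grk had 2.29 and 2.34 CPM at 8-12 h, 14.7 and 11.5 CPM at 12-16 h and 8.63 and 10.9 CPM at 16-20 h. In WT_B, grk had 1.39 and 1.88 CPM, 11.7 and 13.0 CPM and 13.0 and 15.2 CPM at these stages. The 8-12 h libraries lay below the later ones in both tables, and the changes at 12-16 h were 2.49 ± 0.39 in WT_A (adjusted p = 7.57e-04) and 2.93 ± 0.38 in WT_B (adjusted p = 1.35e-04), beside 1.62 ± 0.45 in the CR43432 controls. Akap200, which shares 212 bases with grk, fell at the same step in the 3 tables (-0.84, -1.19 and -1.16). exu had 6.02 and 5.25 CPM at 12-16 h against 0.71 and 0.29 CPM at 8-12 h in WT_B (3.43 ± 0.77; adjusted p = 0.00445). galla-1, which shares 448 bases with exu, rose at this step in the 3 tables (1.17, 2.42 and 1.98), and its part in the exu counts was not tested.

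osk changed in opposite directions at this step in 2 of the tables. The CR43432 controls had 2.78 and 3.25 CPM at 12-16 h against 0.56 and 0.44 CPM at 8-12 h (2.55 ± 0.36), and WT_B had 0.14 and 0.53 CPM against 1.39 and 1.80 CPM (-2.43 ± 0.84; adjusted p = 0.0385). The WT_B values rest on 10 reads at 12-16 h and 60 at 8-12 h, and the call did not hold without any 1 of the 4 libraries (adjusted p 0.0627 to 0.288). At 16-20 h against 12-16 h, vas fell in the CR43432 controls (-1.28 ± 0.40; adjusted p = 0.0406), 1 of 10 members against 7.86% of all genes lower and 13.4% higher (21.3% in all). That value comes from 1 library, assumed to vary like the other groups, and was not called without either 12-16 h library (adjusted p = 0.0657 and 0.165). No member was called in WT_A or WT_B at this step by edgeR or DESeq2, and none had an unadjusted p under 0.05. Over all genes, edgeR called 14.9% higher and 9.66% lower in WT_A (24.6% in all) and 7.72% higher and 6.77% lower in WT_B (14.5% in all).

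In dora[B] embryos, the mRNAs of bcd, swa and osk rose against WT_B controls at every late stage, aub rose at 12-16 and 16-20 h, and grk rose at 8-12 h. tud was lower, and exu, nos, vas and pgc were not called. As the mean of the 3 times, 5 members rose and 1 fell, against 17.8% of all genes called higher and 24.7% called lower (42.5% in all). The all-gene split was 2028 higher and 2827 lower, or 2215 and 1816 when scaled by library totals. The median change of all genes was -0.38 on the log2 scale, or -0.31 with RLE scaling and -0.26 with library totals. At single times, 4 members rose at 8-12 h (6.68% of all genes higher and 0.193% lower; 6.87% in all). At 12-16 h, 4 rose and 1 fell (11.3% higher and 12.7% lower; 24.0% in all). At 16-20 h, 4 rose (10.2% higher and 5.44% lower; 15.6% in all), though none was called without either WT_B library of that age (adjusted p 0.0501 to 0.0935). In these bulk libraries, fewer embryos or cells with an mRNA and less of it per cell cannot be told apart.

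Of the anterior genes, bcd had 129 and 122 CPM in dora[B] libraries at 8-12 h against 2.18 and 0.29 CPM in WT_B. At 12-16 h bcd had 79.0 and 146 CPM in dora[B] against 1.60 and 0.18 CPM in WT_B, and at 16-20 h it had 179 and 77.6 CPM against 1.72 and 1.55 CPM. Every dora[B] library was above every control of its age, which held for 13.9% of all genes. The log2 fold change over the 3 times was 6.54 ± 0.56 (adjusted p = 5.13e-05), from 14780 reads in dora[B] and 162 in WT_B. The single times gave 6.55 ± 0.97, 6.78 ± 0.99 and 6.29 ± 0.97, and the first was not called without WT_B replicate 2 (5.85; adjusted p = 0.0636). The dora[B] libraries of the 3 ages overlapped, and the CR43432 controls, scaled in another table, had 99.1 and 141 CPM at 2-4 h.

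swa had 60.1 and 92.5 CPM in dora[B] libraries at 8-12 h against 0.79 and 0.29 CPM in WT_B. At 12-16 h swa had 52.9 and 108 CPM in dora[B] against 1.35 and 0 CPM in WT_B, and at 16-20 h it had 86.3 and 59.5 CPM against 0.90 and 1.29 CPM. Every dora[B] library was above every control of its age, as for 13.9% of all genes. The change over the 3 times was 6.57 ± 0.54 (adjusted p = 2.72e-05). The 8-12 h call (7.02 ± 0.95) was lost without either WT_B library (adjusted p = 0.0575 and 0.0722). exu, which acts on the same mRNA in the ovary, did not share this pattern. It had 1.18 and 2.36 CPM in dora[B] against 0.71 and 0.29 CPM in WT_B at 8-12 h, 2.66 and 2.39 CPM against 6.02 and 5.25 CPM at 12-16 h, and 3.49 and 4.24 CPM against 1.76 and 3.96 CPM at 16-20 h. exu in dora[B] was above the controls at 8-12 h (as were 29.2% of all genes), below at 12-16 h (45.7%) and overlapped them at 16-20 h. The change over the 3 times was 0.35 ± 0.40 (adjusted p = 0.517).

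Of the posterior mRNAs, osk had 12.9 and 14.6 CPM in dora[B] libraries at 8-12 h against 1.39 and 1.80 CPM in WT_B. At 12-16 h osk had 6.46 and 17.2 CPM in dora[B] against 0.14 and 0.53 CPM in WT_B, and at 16-20 h it had 26.7 and 10.6 CPM against 0.14 and 0 CPM. Every dora[B] library was above every control of its age, as for 13.9% of all genes. The change over the 3 times was 5.37 ± 0.50 (adjusted p = 2.24e-05). At 16-20 h dora[B] held 833 reads and the controls 3, a ratio of 249 (95% exact interval of counting error 85.1 to 1212). The dora[B] levels lay under the 95.3 and 104 CPM of 2-4 h controls in the CR43432 table. The 8-12 h call was lost without any 1 of its 4 libraries (2.90 to 3.32; adjusted p 0.196 to 0.347).

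nos had 1.31 and 2.21 CPM in dora[B] libraries at 8-12 h against 1.79 and 1.66 CPM in WT_B. At 12-16 h nos had 1.51 and 0.25 CPM in dora[B] against 2.07 and 2.01 CPM in WT_B, and at 16-20 h it had 1.89 and 0.94 CPM against 2.89 and 2.58 CPM. The groups overlapped at 8-12 h. dora[B] lay below at the later times, which held for 45.7% of all genes at 12-16 h and 48.2% at 16-20 h. The change over the 3 times was -0.70 ± 0.52 (adjusted p = 0.299). CG11779, which shares 2641 bases with nos and reached 90.8 CPM, fell (-0.63; adjusted p = 0.0133). Nsun5, which shares 104 bases with nos, rose (0.47; adjusted p = 0.0414). The part of either gene in the nos counts was not tested. pgc had 26 reads in the 6 dora[B] libraries and 27 in the 6 WT_B libraries. Of these, 23 in dora[B] and 25 in WT_B were from 8-12 h, and a difference at the later times was not detectable at this depth.

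aub had 73.9 and 59.2 CPM in dora[B] libraries at 8-12 h against 21.0 and 26.8 CPM in WT_B. At 12-16 h aub had 23.6 and 43.5 CPM in dora[B] against 4.20 and 8.05 CPM in WT_B, and at 16-20 h it had 66.6 and 23.8 CPM against 5.19 and 5.69 CPM. Every dora[B] library was above every control of its age, as for 13.9% of all genes. The change over the 3 times was 2.34 ± 0.29 (adjusted p = 1.14e-04). At single times it was 1.48 ± 0.48 (not called, adjusted p = 0.100), 2.47 ± 0.50 and 3.06 ± 0.52. The 8-12 h change was called without a filter on low counts (1.49; adjusted p = 0.0195) or with the compared groups alone (1.48; adjusted p = 1.99e-04). The 12-16 h call was lost without either WT_B library or dora[B] replicate 2 (adjusted p 0.0638 to 0.117).

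vas had 5.30 and 7.55 CPM in dora[B] libraries at 8-12 h against 7.74 and 5.63 CPM in WT_B. At 12-16 h vas had 4.85 and 3.99 CPM in dora[B] against 7.02 and 5.43 CPM in WT_B, and at 16-20 h it had 4.27 and 4.61 CPM against 7.72 and 7.92 CPM. The groups overlapped at 8-12 h. dora[B] lay below at the later times, which held for 45.7% of all genes at 12-16 h and 48.2% at 16-20 h. The change over the 3 times was -0.46 ± 0.25 (adjusted p = 0.161). solo, which shares 10478 bases with vas and did not exceed 8.31 CPM, rose by 3.08 over the 3 times (adjusted p = 0.00101). vig, which shares 7386 bases with vas and reached 1030 CPM, fell (-0.64; adjusted p = 0.00285). The part of either gene in the vas counts was not tested.

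tud had 356 and 313 CPM in dora[B] libraries at 8-12 h against 413 and 418 CPM in WT_B. At 12-16 h tud had 427 and 314 CPM in dora[B] against 623 and 559 CPM in WT_B, and at 16-20 h it had 271 and 373 CPM against 481 and 449 CPM. dora[B] lay below its controls at each time, which held for 15.4% of all genes. The change over the 3 times was -0.51 ± 0.12 (adjusted p = 0.00751), beside the all-gene median of -0.38. Leaving out 1 library ended this call in 8 of 12 cases (-0.28 to -0.35), and so did fitting without a filter on low counts (-0.34; adjusted p = 0.0788). The 12-16 h call (-0.67 ± 0.21) was lost without any 1 of its 4 libraries (-0.22 to -0.59).

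grk had 13.3 and 13.5 CPM in dora[B] libraries at 8-12 h against 1.39 and 1.88 CPM in WT_B. At 12-16 h grk had 16.9 and 24.6 CPM in dora[B] against 11.7 and 13.0 CPM in WT_B, and at 16-20 h it had 9.54 and 14.0 CPM against 13.0 and 15.2 CPM. dora[B] lay above WT_B at 8-12 and 12-16 h (as did 29.2% and 21.9% of all genes), and the groups overlapped at 16-20 h. The change was 3.05 ± 0.38 at 8-12 h (adjusted p = 8.32e-04), 0.75 ± 0.35 at 12-16 h (adjusted p = 0.134) and -0.26 ± 0.35 at 16-20 h (adjusted p = 0.598). DESeq2 did call the 12-16 h change (1.02; adjusted p = 0.0370). Akap200, which overlaps grk and reached 2126 CPM, was not called at 8-12 h (0.07; adjusted p = 0.924). The effect on grk at 16-20 h differed from that at 8-12 h by -3.31 ± 0.51 (interaction contrast, adjusted p = 0.00891), 1 of 10 members called against 1.16% of all genes lower and 0.446% higher (1.61% in all). That call was lost without any 1 of 6 libraries, those of both 8-12 h groups and of WT_B at 16-20 h (-2.84 to -3.31; adjusted p 0.128 to 0.202).

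**Figure D2:**
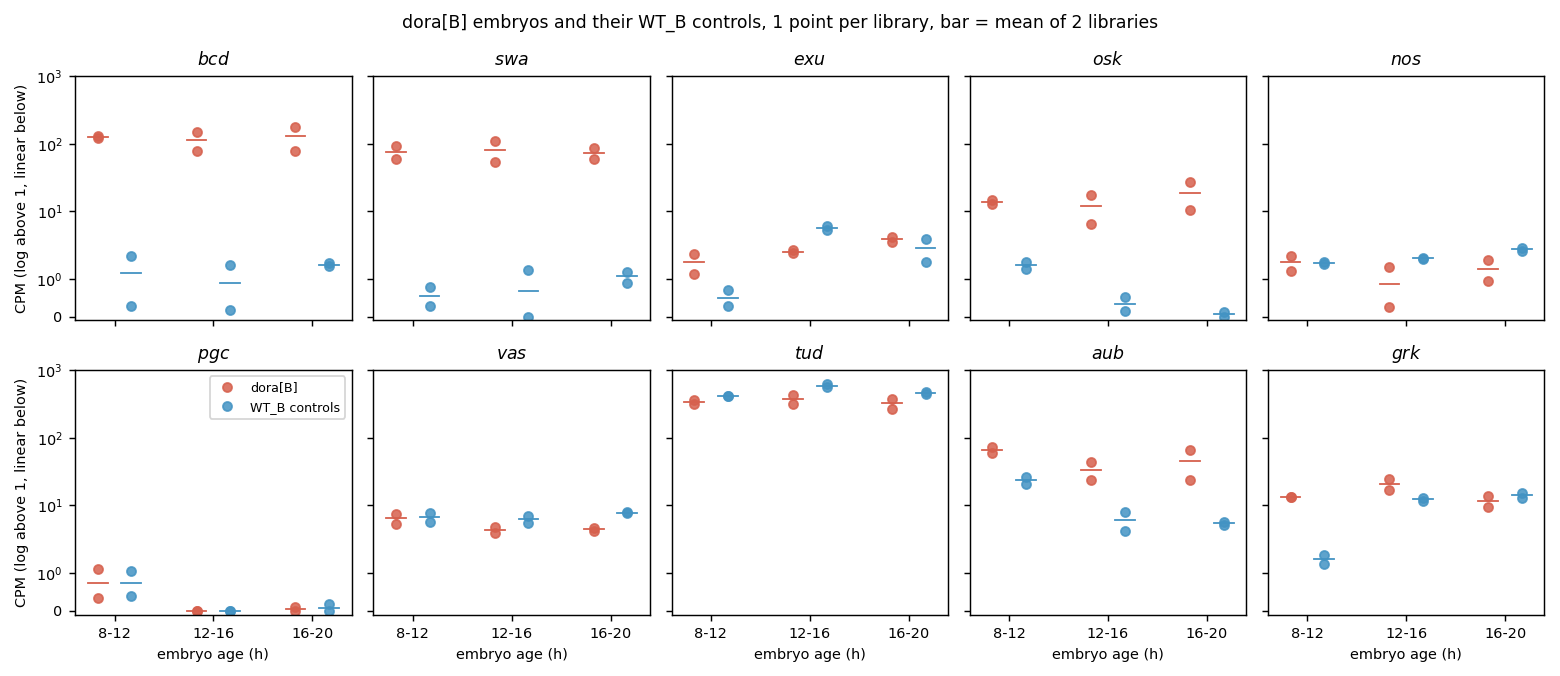
CPM of each member (y axis, logarithmic above 1 and linear below) in every dora[B] library (red, left) and WT_B control library (blue, right) by embryo age in hours (x axis), with bars at the mean of 2 libraries. The dora[B] points of bcd, swa, osk and aub lie above all control points of their age, those of tud lie below, and those of grk lie above at 8-12 and 12-16 h.

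Markers of stage were read beside the dora[B] result, with 17.8% of all genes called higher and 24.7% lower over the 3 times as background. The 10 early zygotic patterning genes summed to 240 and 252 CPM in dora[B] against 335 and 349 CPM in WT_B at 8-12 h, 134 and 152 CPM against 190 and 229 CPM at 12-16 h, and 99.4 and 117 CPM against 165 and 196 CPM at 16-20 h. dora[B] lay below WT_B at each time, and over the 3 times 2 of the 10 fell (sog -0.68 and odd -0.68) and none rose, a share of lower genes near that background. The 11 late differentiation genes summed to 3354 and 4516 CPM in dora[B] against 2755 and 4391 CPM in WT_B at 8-12 h, 10529 and 15661 CPM against 36443 and 42023 CPM at 12-16 h, and 10301 and 17474 CPM against 23526 and 25225 CPM at 16-20 h. The groups overlapped at 8-12 h and dora[B] lay below later, and 7 of the 11 fell over the 3 times, among them verm (-0.89) and serp (-0.76). The 16 follicle cell and eggshell genes summed to 1.41 to 5.42 CPM in dora[B] libraries against 3.10 to 7.24 CPM in WT_B. The part of embryo stage in the members' differences was not tested.

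The other genes of these pathways were read from lists, as counts of called genes in dora[B] over the 3 times beside the all-gene median of -0.38 and the 17.8% of all genes called higher and 24.7% called lower. Of 22 nuage and piRNA pathway genes, the companions of aub and vas, 15 rose and none fell (median 2.11). mael averaged 97.4 CPM in dora[B] and 6.53 CPM in WT_B (3.97 ± 0.26). tej, which encodes a Tudor-domain protein, averaged 77.5 CPM in dora[B] and 3.18 CPM in WT_B (4.62 ± 0.32). In controls, 20 of these 22 had fallen at 8-12 h against 2-4 h, where 28.4% of all genes were called lower.

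Of 5 genes that act with Nanos or on nos mRNA in repression, 4 rose and 1 fell (median 0.56). smg, which encodes Smaug, a repressor of nos that directs maternal mRNA decay, averaged 2595 CPM in dora[B] and 110 CPM in WT_B (4.56 ± 0.22). pum, the RNA-binding partner of Nanos, averaged 718 CPM in dora[B] and 428 CPM in WT_B (0.76 ± 0.13), and twin, a deadenylase, fell (-0.61 ± 0.11). Of 24 transport and translational control factors of the oocyte that were tested, of 26, 11 rose and 2 fell (median 0.18), against 17.8% and 24.7% of all genes. Among them tral averaged 1538 CPM in dora[B] and 380 CPM in WT_B (2.04 ± 0.22) and glo rose by 0.95 ± 0.16, while egl (-0.58) and Fmr1 (-0.35) fell.

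Of 17 dorsoventral genes, the system that grk starts, 8 rose and 3 fell (median 0.51). Tl, the receptor Toll, averaged 1039 CPM in dora[B] and 386 CPM in WT_B (1.67 ± 0.18), and ea, the protease Easter, averaged 19.9 CPM in dora[B] and 5.37 CPM in WT_B (2.64 ± 0.28). dl, the transcription factor Dorsal (-0.75), and Egfr, the receptor for Gurken (-0.57), fell. Of 5 terminal genes tested, of 6, 2 rose (median 0.52): tor, the Torso receptor, averaged 109 CPM in dora[B] and 1.62 CPM in WT_B (6.08 ± 0.32), and fs(1)N rose by 2.25 ± 0.37.

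Of 11 other germ plasm and pole cell genes, 2 rose and 4 fell (median -0.46), near the 17.8% and 24.7% of all genes. CycB, which encodes the mitotic cyclin B, averaged 2196 CPM in dora[B] and 170 CPM in WT_B (4.58 ± 0.27), and csul, an arginine methyltransferase gene, rose by 1.47 ± 0.23. gcl (-0.69) and wun2 (-0.46) fell. Of 11 zygotic genes that read the egg axes, hb rose (1.07 ± 0.21) and 3 fell, among them Kr (-0.66) and oc (-0.61), with a median of -0.39, again near the all-gene shares and median. hb also has a maternal transcript. No gene of any of these lists was called in dora[A] or in CR43432 mutants over the 3 times.

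The dora[B] calls can be set beside the fall in level of each mRNA in the CR43432 controls, another table. Of 3580 genes called lower there at 8-12 h than at 0-2 h and tested in dora[B], 1416 were already called lower at 2-4 h. Of these, 120 (8.47%) rose in dora[B] and 481 (34.0%) fell. The other 2164 were not yet called lower at 2-4 h, and 1318 of them (60.9%) rose in dora[B] while 82 (3.79%) fell. All 4 members not yet called lower at 2-4 h rose, bcd, swa, aub and grk. Of the 6 members already lower there, osk rose, tud fell, and exu, nos, pgc and vas were not called. With 0-2 and 2-4 h fitted alone, swa would join those already lower at 2-4 h. This division was made after the values were seen and is a description without a test.

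**Figure D3:**
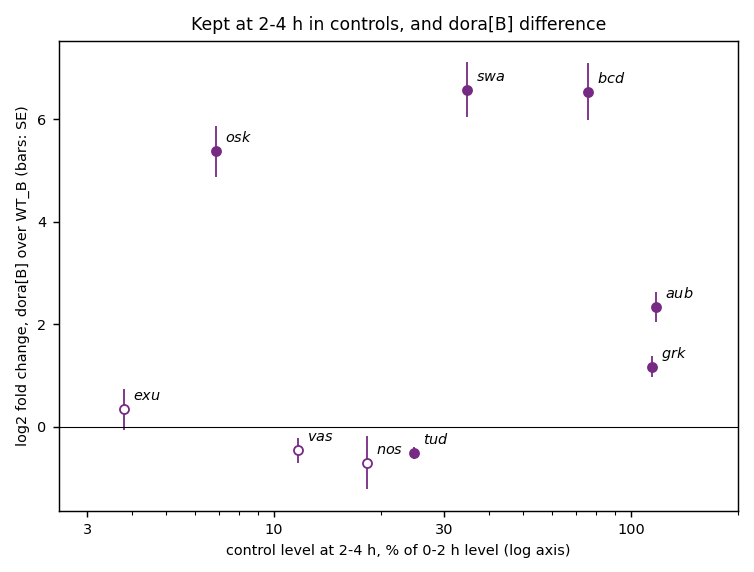
Log2 fold change of dora[B] over WT_B as the mean of 3 times (y axis, bars SE, filled points called) against the level kept by CR43432 controls at 2-4 h as a percentage of the 0-2 h level (x axis, logarithmic), 1 point per member; pgc is left out for its few reads. bcd, swa, aub and grk, at 34.7% to 118%, were called higher, osk was called higher at 6.90%, tud was called lower at 24.6%, and exu, vas and nos were not called.

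In dora[A] embryos no member was called at any time, over the 3 times or for the difference between 16-20 h and 8-12 h. pgc did not pass the filter on low counts there, so 9 were tested. By edgeR, 0.00897% of 11153 genes were called at 8-12 h and 0.0% at 12-16 h, at 16-20 h and over the 3 times. No member had an unadjusted p under 0.05, where 235, 520, 245 and 727 genes had one, and DESeq2 called no member and 8, 3, 1 and 16 genes.

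bcd had 41.2 and 0.47 CPM in dora[A] libraries at 8-12 h against 3.81 and 18.4 CPM in WT_A. At 12-16 h bcd had 35.7 and 0.75 CPM in dora[A] against 5.68 and 7.18 CPM in WT_A, and at 16-20 h it had 14.6 and 18.8 CPM against 5.85 and 12.2 CPM. The 2 dora[A] libraries lay on either side of both controls at the first 2 times. They lay above them at 16-20 h, which held for 13.2% of all genes. The change over the 3 times was 1.10 ± 0.97 (adjusted p = 0.818). swa had 21.7 and 0.28 CPM in dora[A] against 4.32 and 13.1 CPM in WT_A at 8-12 h, 21.2 and 0.50 CPM against 4.91 and 4.67 CPM at 12-16 h, and 5.91 and 8.75 CPM against 3.08 and 4.03 CPM at 16-20 h. As for bcd, replicate 1 was high and replicate 2 low at the first 2 times (0.86 ± 0.91; adjusted p = 0.859).

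osk had 4.09 and 1.61 CPM in dora[A] against 0.83 and 2.21 CPM in WT_A at 8-12 h, 3.78 and 0.25 CPM against 1.59 and 0.06 CPM at 12-16 h, and 1.77 and 1.08 CPM against 0.36 and 0.11 CPM at 16-20 h. The groups overlapped until 16-20 h, where dora[A] lay above, which held for 13.2% of all genes. The change over the 3 times was 1.59 ± 0.81 (adjusted p = 0.739). aub had 37.7 and 16.1 CPM in dora[A] against 22.8 and 21.0 CPM in WT_A at 8-12 h, 21.2 and 5.87 CPM against 7.33 and 7.84 CPM at 12-16 h, and 9.79 and 7.84 CPM against 6.39 and 8.55 CPM at 16-20 h. The groups overlapped at each time (0.46 ± 0.31; adjusted p = 0.762). For exu, nos, vas, tud and grk, the changes over the 3 times lay between -0.53 and 0.22. pgc had 14 reads in dora[A] at 8-12 h and none in WT_A, at least 5.33-fold higher against a floor of 3 reads over the group. Replicate 2 held 1.23 CPM of it and replicate 1 0.06 CPM.

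The difference between the dora[B] and dora[A] effects, each against its own controls, was tested in 1 fit of both tables, a comparison chosen after the data were seen. Over the 3 times it was 5.47 ± 1.27 for bcd (adjusted p = 0.0114), 5.75 ± 1.21 for swa (adjusted p = 0.00711) and 3.79 ± 1.00 for osk (adjusted p = 0.0156). It was 1.91 ± 0.45 for aub (adjusted p = 0.00864), 1.08 ± 0.28 for grk (adjusted p = 0.0131) and -0.58 ± 0.15 for tud (adjusted p = 0.0136). These are 5 higher and 1 lower, against 11.0% and 6.07% of 11563 genes (17.1% in all), with an all-gene median of -0.30. exu (0.14 ± 0.59), nos (-0.14 ± 0.64) and vas (-0.27 ± 0.33) were not called. The osk call was lost without WT_A replicate 1 at 12-16 h (2.68; adjusted p = 0.212) or at 16-20 h (3.54; adjusted p = 0.0843), and the tud call without any 1 of 3 libraries (-0.39 to -0.41; adjusted p 0.0549 to 0.0889) or with no filter on low counts (-0.41; adjusted p = 0.140). Allele, stock and table cannot be told apart in this difference.

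**Figure D4:**
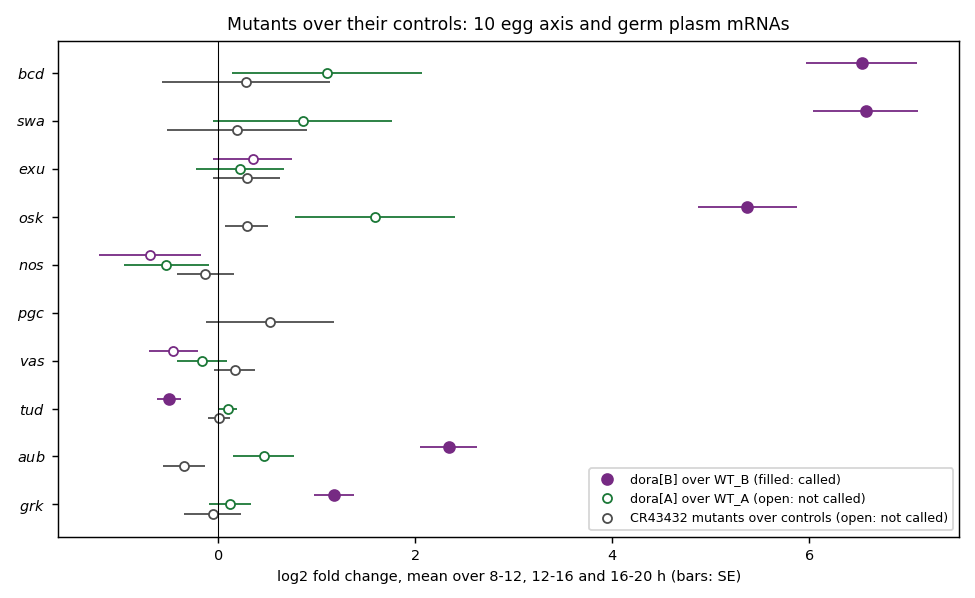
Log2 fold change as the mean of 3 times (x axis, bars SE) for each member (rows) in dora[B] over WT_B (purple), dora[A] over WT_A (green) and CR43432 mutants over their controls (grey), with filled points for called values; pgc is drawn for CR43432 alone. The dora[B] points of bcd, swa and osk lie between 5.37 and 6.57, and no dora[A] or CR43432 point was called.

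In CR43432 mutant embryos no member was called by edgeR or DESeq2 at 8-12, 12-16 or 16-20 h or over the 3 times. edgeR called 0.0436%, 0.0175%, 0.0% and 0.0436% of 11457 genes (0.0262% lower at 8-12 h and over the 3 times) and DESeq2 called 18, 43, 1 and 25 genes. An unadjusted p under 0.05, reached by 385, 400, 76 and 290 genes, was reached by osk at 8-12 h, by osk at 12-16 h and by aub at 16-20 h. osk had 1.71 and 0.92 CPM in mutants against 0.56 and 0.44 CPM in controls at 8-12 h, from 28 reads against 13, and 1.34 and 1.92 CPM against 2.78 and 3.25 CPM at 12-16 h. The mutants were above the controls at the first time, as were 12.8% of all genes, and below at the second, as were 16.7%. The change of the effect was -2.26 ± 0.51, not called (0.00873% of all genes were). aub had 4.03 CPM in the mutant against 9.01 CPM in the control library at 16-20 h (-1.16 ± 0.46), an error borrowed from the other groups of the fit since each genotype had 1 library.

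bcd had 13.9 and 21.3 CPM in CR43432 mutants against 0.28 and 23.1 CPM in controls at 8-12 h, 2.63 and 13.6 CPM against 1.97 and 13.7 CPM at 12-16 h, and 11.2 CPM against 9.85 CPM at 16-20 h. Line 2 was above line 1 in both genotypes, and the groups overlapped (0.28 ± 0.85 over the 3 times; adjusted p = 1.00). The log2 fold change was 0.19 ± 0.71 for swa, 0.29 ± 0.34 for exu, -0.13 ± 0.29 for nos, 0.16 ± 0.21 for vas, 0.01 ± 0.12 for tud and -0.06 ± 0.29 for grk, none of them called.

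bcd and swa varied together over the late control libraries, with groups and tables pooled. No correlation within groups was computed. The 2 libraries of a group did not always rank alike for both mRNAs, as in WT_A at 12-16 h. Over the 17 control libraries from 8 h on, Pearson's r of log2(CPM + 1) was 0.94 and Spearman's rho 0.90, and r was 0.92 without the 2 libraries farthest from the median of swa. Over the same libraries r was 0.18 for bcd with osk and 0.08 for bcd with aub. These are descriptions, since the libraries share tables and, in the CR43432 set, lines.

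**Figure D5:**
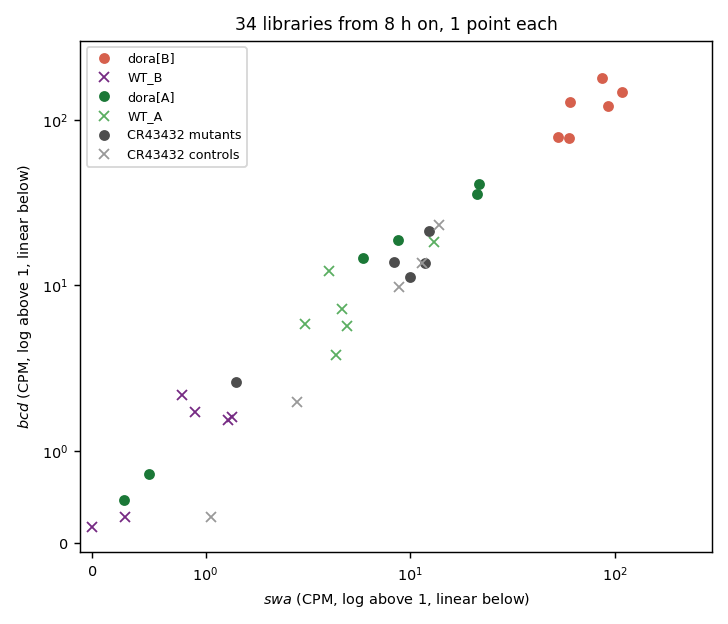
CPM of bcd (y axis) against CPM of swa (x axis, both logarithmic above 1 and linear below) in the 34 libraries from 8 h on, circles for mutants and crosses for controls. The 6 dora[B] libraries lie at the top right, at 52.9 CPM of swa and above, and the dora[A] libraries run along the same line from 0.28 to 21.7 CPM of swa.

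The genes most like each member over the 38 libraries were found by Pearson's r of log2(CPM + 1) among 9001 genes with a highest group mean of at least 10 CPM. For bcd they were twe, a meiotic Cdc25 phosphatase gene (r = 0.989), CG44005 (0.989) and smg (0.983). For swa they were smg (0.977), CG44005 (0.975) and wisp, which encodes a cytoplasmic poly(A) polymerase (0.974). osk was most like yl, the gene of the yolk protein receptor (0.960), grp (0.953) and otu (0.952). nos was most like alphaTub67C, a maternal tubulin gene (0.964), APC7 (0.962) and fs(1)Ya (0.960). pgc was most like APC7 (0.984), CG18586 (0.982) and CG14036 (0.976), and vas was most like Boot (0.951), alphaTub67C (0.938) and png, a kinase gene of egg activation (0.933). exu was most like cyc (0.958), CG7627 (0.936) and orb (0.929), and aub was most like smid (0.969), Nup358 (0.967) and Ipo9 (0.966). tud was most like spg (0.951), Hsp60A (0.937) and Evi5 (0.929). For grk they were CG1927 (0.932), the unnamed gene FBgn0259234 (0.929) and CG9132 (0.919). All libraries and their depth are shared by these values, and the 4 early libraries lie far from the rest. For bcd and swa, the dora[B] libraries also lie above all other libraries from 8 h on.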

How the data were processed

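Poly(A) mRNA of Drosophila embryos was read as 50-nt single ends, per the labels' protocols. The deposited values are raw counts per gene, made by the authors; the submitters' processing notes name dm6, STAR 2.4 and HTSeq without roles, and read filters and strand use are not stated. Rows that name no gene (6.02% to 20.5% of a library) were removed. Each of the 3 tables was fitted with edgeR 4.0.16 in R 4.3.3: TMM scaling, filterByExpr, 1 coefficient per group, robust quasi-likelihood tests, and Benjamini-Hochberg adjustment over all genes tested, with a threshold of 0.05. SE is the log2 fold change divided by the root of its F statistic. The fit was run on simulated counts with known changes, drawn with its own estimates of spread. That run does not check the assumption that groups share 1 spread. Alternatives were RLE scaling, library totals, no filter, the compared groups alone, a replicate block, DESeq2 1.42.0 and each library left out.

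No 2 libraries of a group were near-duplicates. Fly line numbers pair the CR43432 control stages (correlation of deviations 0.114 to 0.215). All 10 members are named in every comparison; of each other list at most 2 genes per direction with the smallest adjusted p, and for likeness the 3 highest correlations. The members and lists were chosen with earlier results of these data known. Intervals cover counting error only.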

Additional observations from a re-analysis of the deposited data

Results flagged for a closer look

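The dora[B] effect on grk differed between times: the effect at 16-20 h minus that at 8-12 h was -3.31 on the log2 scale, by the interaction contrast. That call was lost when single libraries of either 8-12 h group or of WT_B at 16-20 h were left out. The dora[B] and dora[A] effects, each against its own controls, differed by the test of the difference for 6 members: 5.47 for bcd, 5.75 for swa, 3.79 for osk, 1.91 for aub, 1.08 for grk and -0.58 for tud. This comparison was chosen after the data were seen, and the osk and tud calls were lost with some single libraries left out. In 3 further cases every dora[B] library lay below its controls and every dora[A] library above its own, and the difference at that time was not tested: exu at 12-16 h (-1.16 in dora[B] and 0.30 in dora[A]), tud at 12-16 h (-0.67 and 0.13) and tud at 16-20 h (-0.53 and 0.08). Of all genes, 45.7% at 12-16 h and 48.2% at 16-20 h lay below in dora[B], and 16.4% and 13.2% lay above in dora[A]. With 2 libraries per group, no sample was examined as standing apart within its group.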

How the results depend on the processing

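No called value of a member changed direction under any alternative run. Over the 3 times, bcd, swa, osk, aub and grk stayed called in dora[B] in every alternative run (log2 fold changes 6.43 to 7.51, 6.56 to 8.88, 5.09 to 6.84, 2.18 to 2.81 and 1.15 to 1.49); for these means, fitting the compared groups alone is the full fit itself. Fitting the compared groups alone gave 0 members called in dora[B] at 16-20 h in place of 4, and no gene at all, with 4 libraries in the fit. Of the control steps, 16-20 h against 12-16 h in the CR43432 table gave 0 members with RLE scaling and 2 with the compared groups alone, in place of 1. The dora[B] difference between 16-20 h and 8-12 h gave 2 members without a filter and 2 with DESeq2, in place of 1: osk joined grk. Leaving out 1 library gave 2 to 4 members at 12-16 h against 8-12 h in the CR43432 controls (4 in the full fit), 0 to 0 at 16-20 h against 12-16 h (1), 1 to 1 in WT_A (2) and 2 to 3 in WT_B (4) at 12-16 h against 8-12 h, 1 to 3 in dora[B] at 8-12 h (4), 3 to 5 at 12-16 h (5), 0 to 4 at 16-20 h (4) and 0 to 3 for the dora[B] difference between times (1). The count at 8-12 h was 2 without WT_B replicate 1 and 1 without WT_B replicate 2, and that at 16-20 h was 0 without either WT_B library; in these fits the lone library is assumed to vary like the other groups. The cause was not tested.

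The osk change in dora[B] at 8-12 h was 2.97 with RLE scaling (adjusted p = 0.0509), and tud at 12-16 h was called in the full fit (-0.67) but not with RLE scaling, library totals, no filter, the compared groups alone or DESeq2 (-0.31 to -0.47). With 3 pairs in each dora table, same-numbered mutant and control libraries did not all correlate (-0.0626 to 0.513 in dora[A], -0.0593 to 0.326 in dora[B]), so the numbers are not shown to pair them; the replicate block ended the osk call at 12-16 h against 8-12 h in WT_B (-2.43; adjusted p = 0.0518), and it brought the call of bcd at 8-12 h against 2-4 h in the CR43432 controls (-4.08; adjusted p = 0.0127). It changed no other member's call. CR43432 at 16-20 h, with 1 library per genotype, could not be fitted alone or with a library left out. At 10 reads or fewer per group, as for pgc and for osk in late WT_B controls, depth limits what can be seen.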
